A study of Drosophila melanogaster with 4 samples.

Results

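The don juan and janus-ocnus genes are 5 genes at 2 loci of *Drosophila melanogaster*, most of them used mainly in the male germline: *dj* (don juan), *djl* (don juan like), *janA* (janus A), *janB* (janus B) and *ocn* (ocnus). They were chosen by name, and their transcripts were found by FlyBase identifier in the BDGP6.54 annotation and summed per gene, so that 5 of the 13771 genes with a transcript in the count table are described. RNA was taken from testes of 5-day-old *sws1* males and of WT males (Canton S), and each genotype had 2 libraries, each made from 30 pooled pairs of testes. The *sws1* flies carry a mutant allele of *swiss cheese* (*sws*), which encodes a phospholipase of the neuropathy target esterase family. The sources used here do not say whether *sws1* and Canton S share a genetic background, so the allele and the rest of the genome cannot be told apart.

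Sperm genes of *Drosophila* are mostly transcribed in spermatocytes, before the meiotic divisions, and many of their mRNAs are stored and translated only in elongating spermatids. *dj* is a well-known example of this storage: its lysine-rich product appears in spermatids and lies along the mitochondrial derivatives of the sperm tail, and *djl* is its neighbouring paralog. *janA*, *janB* and *ocn* are tandem paralogs related to phosphohistidine phosphatases, of which *janA* is used in many tissues of both sexes, *janB* in the male germline and *ocn* in the testis, where its protein is abundant.

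All 5 genes lie on chromosome 3R of the BDGP6.54 annotation, at 2 separate loci. *dj* (FBgn0019828, 7059315 to 7060524) and *djl* (FBgn0037463, 7060767 to 7061919) are on the plus strand, 242 bases apart. *janA* (FBgn0001280, 30038622 to 30039533), *janB* (FBgn0001281, 30037984 to 30038728) and *ocn* (FBgn0041102, 30037003 to 30037730) follow each other on the minus strand. The last exon of *janA* and the first exon of *janB* share 107 bases, and 253 bases separate *janB* from *ocn*. *janA* and *janB* share a strand, so the strand of a read does not separate them within these bases, and how the counting assigned such reads is not given in the sources used here. No sequence of these genes was used here, so the likeness of the paralogs was not measured, and reads that fit both members of a pair are uncertain.

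The libraries held 2364636 and 2218335 counts in *sws1* and 4498060 and 2692475 counts in WT. The mutated gene *sws* had 166 and 179 counts in *sws1* against 662 and 500 in WT, and its log2 fold change (log2FC, *sws1* minus WT throughout) was −1.28 ± 0.15 (± standard error here and below; edgeR's adjusted p = 2.12e-06). The testis tubulin gene *betaTub85D* was abundant in every library, at 2397 and 2233 CPM (counts scaled to a common library size) in *sws1* and 3105 and 3163 CPM in WT. Markers of other organs of the male tract also differed between the genotypes. The 15 tested genes of an accessory gland list summed to 1597 and 669 CPM in *sws1*, against 68.9 and 77.9 CPM in WT, and 8 of them were called higher. The 4 tested genes of an ejaculatory duct and bulb list, all called higher, summed to 519 and 489 CPM in *sws1*, against 90.9 and 92.4 CPM in WT. *Acp24A4* of the first list was at 0 counts in all 4 libraries. Of a fat body list, 1 of 5 tested genes was called higher, and of a muscle list, 2 of 10. The part of these tissues in the results below was not tested.

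*dj*, *djl*, *janB* and *ocn* were lower in *sws1* testes than in WT testes, at between 54.3% and 68.9% of the WT level, while *janA*, at 78.6%, did not pass the test. Together the 5 genes took 0.316% (Wilson 95% interval 0.309 to 0.323) and 0.335% (0.328 to 0.343) of all counts in the *sws1* libraries, against 0.497% (0.490 to 0.503) and 0.492% (0.484 to 0.501) in the WT libraries. These intervals cover counting error only. In whole testes, fewer late germ cells and less RNA per cell cannot be told apart.

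*dj* had 2320 and 2480 counts in *sws1* replicates 1 and 2, against 7744 and 4784 counts in WT replicates 1 and 2. Scaled by the TMM method, this was 926 and 1081 CPM in *sws1*, against 1820 and 1872 CPM in WT. The *sws1* libraries lay well below both WT libraries and differed from each other more than the WT libraries did. By edgeR, the log2FC was −0.88 ± 0.10 with an adjusted p of 1.19e-06, which puts *dj* at 54.3% of the WT level (95% interval 47.0 to 62.8). Its paralog *djl* had 1062 and 1195 counts in *sws1*, against 2976 and 1896 counts in WT, or 424 and 521 CPM against 699 and 742 CPM. The genotypes did not overlap here either, and the *sws1* libraries again stood further apart than the WT libraries. For *djl*, edgeR gave −0.61 ± 0.11 (adjusted p = 0.000348), or 65.5% of the WT level (56.0 to 76.7).

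In the janus-ocnus cluster, the change was largest in *ocn*, intermediate in *janB* and smallest in *janA*. *ocn* had 2568 and 2306 counts in *sws1* and 7819 and 4387 counts in WT. Its level was 1025 and 1005 CPM in *sws1*, against 1838 and 1717 CPM in WT, with nearly equal *sws1* libraries. The difference was −0.81 ± 0.10 on the log2 scale (edgeR, adjusted p = 1.92e-06), or 57.1% of the WT level (49.8 to 65.5). *janB* had 1193 and 1149 counts in *sws1* and 3073 and 1777 counts in WT, that is 476 and 501 CPM against 722 and 696 CPM. Replicates were close in both genotypes, and edgeR gave −0.54 ± 0.10 on the log2 scale (adjusted p = 0.000447), or 68.9% of the WT level (59.7 to 79.5).

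*janA*, the broadly used member, was the least abundant. It had 324 and 302 counts in *sws1* and 725 and 412 counts in WT, or 129 and 132 CPM against 170 and 161 CPM. Both *sws1* libraries were below both WT libraries, by a smaller margin than in the other members. Its log2FC of −0.35 ± 0.13 had an adjusted p of 0.0555 (edgeR) and an interval of 65.5% to 94.3% of the WT level. This misses the threshold of 0.05 and does not show that *janA* was unchanged. With the size factors of DESeq2 inside edgeR, the adjusted p was 0.0459. Over the alternatives on genes that kept all 4 libraries, other than the spermatocyte scaling, it lay between 0.0430 (edgeR with the replicate block) and 0.237 (DESeq2).

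**Figure D1:**
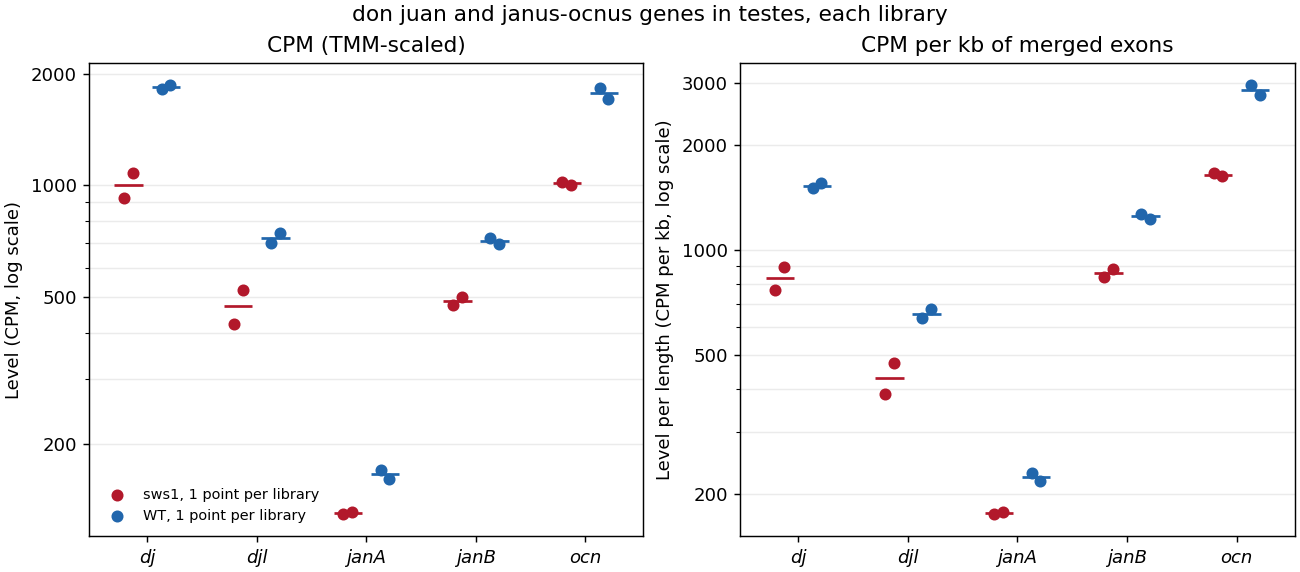
Level of the 5 genes in every library, in TMM-scaled CPM (left) and in CPM per kb of merged exons (right), both on a log axis, with *sws1* left of WT, 1 point per library and a bar at the mean of the 2 libraries. In each gene both *sws1* points lie below both WT points, from 926 and 1081 against 1820 and 1872 CPM in *dj* to 129 and 132 against 170 and 161 CPM in *janA*.

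Genes were called where edgeR's adjusted p was under 0.05 and the log2FC lay beyond 0.3 in either direction. By this rule 4 of the 5 members were called lower in *sws1*, whereas 11.5% of the 9634 genes tested were. Among the 1491 genes with a mean CPM within the range of the members, 30.7% were called lower. In all 5 members both *sws1* libraries were below both WT libraries, which was so for 28.9% of the genes tested. DESeq2 called *dj*, *djl*, *janB* and *ocn* as well and not *janA* (adjusted p = 0.237). That tool gave an adjusted p to 11419 genes and called 5.53% of them lower. Of all genes tested, 3.64% had a lower log2FC than *dj*, 4.38% than *ocn*, 7.64% than *djl*, 9.67% than *janB* and 19.1% than *janA*.

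Per length of merged exons, *ocn* was the most abundant member in both genotypes, with 1640 ± 22.3 CPM per kb in *sws1* and 2871 ± 138 CPM per kb in WT (SD, n = 2 each). *dj* had 829 ± 90.7 CPM per kb in *sws1* and 1526 ± 30.7 in WT. *janB* had 858 ± 30.8 CPM per kb in *sws1* and 1246 ± 33.1 in WT. Thus *dj* stood above *janB* in both WT libraries, but the 2 genes overlapped in *sws1*, where *dj* had 765 and 893 CPM per kb and *janB* had 837 and 880. *djl* followed with 430 ± 62.5 CPM per kb in *sws1* and 656 ± 27.5 in WT, and *janA* was last with 176 ± 2.25 in *sws1* and 224 ± 8.72 in WT. Apart from *dj* and *janB* in *sws1*, neighbours in this order did not overlap in either genotype. By their mean over the 4 libraries, *ocn*, *dj*, *janB*, *djl* and *janA* ranked 30, 68, 81, 200 and 799 among the 9634 genes tested. For *dj* and *janA*, which have more than 1 transcript, these levels depend on how the counting treated reads that several transcripts share, which is not given in the sources used here.

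The ratio of 2 members within a library does not depend on the scaling between libraries. There were 2.18 and 2.08 counts of *dj* for each count of *djl* in *sws1*, against 2.60 and 2.52 in WT. For each count of *janA*, *ocn* had 7.93 and 7.64 counts in *sws1*, against 10.8 and 10.6 in WT, the widest difference of the 4 ratios examined (−0.46 on the log2 scale). *janB* had 3.68 and 3.80 counts for each count of *janA* in *sws1*, against 4.24 and 4.31 in WT. The ratio of *ocn* to *janB* was 2.15 and 2.01 in *sws1*, against 2.54 and 2.47 in WT. In each ratio the genotypes did not overlap, so *dj* fell further than *djl*, and *ocn* further than *janB* and *janA*, in these libraries. With 2 libraries against 2, an exact two-sided permutation test cannot give less than p = 0.333, which is what each ratio gave (adjusted over the 4 ratios, 0.333).

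Transcripts as deposited were also compared. *djl*, *janB* and *ocn* have 1 annotated transcript each, and *dj* and *janA* have 3 each. Nearly all counts of *dj* fell on dj-RA (FBtr0089742), the form with 2 exons and 248 codons, with 2312 and 2480 counts in *sws1* against 7724 and 4758 in WT, or between 99.5% and 100% of the gene in each library. The intron-retaining dj-RC had 8 and 0 counts in *sws1*, against 8 and 14 in WT. dj-RB, whose second exon starts further downstream, had 0 and 0 counts in *sws1*, against 12 and 12 in WT. By counting error alone, a count of 0 allows up to 0.129% and 0.121% of the *dj* counts in *sws1* replicates 1 and 2. The dj-RB shares of 0.155% and 0.251% in WT lie above both limits but rest on 12 counts in each library, and the difference was not tested. How reads shared by the forms were assigned is not given in the sources used here, and the limit does not cover it.

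The transcripts of *janA* did not move together. janA-RC (FBtr0085595) had 125 and 140 counts in *sws1* against 371 and 276 in WT, or 38.6% and 46.4% of the gene in *sws1* against 51.2% and 67.0% in WT. janA-RA (FBtr0085597), which differs from janA-RC in its first exon, had 121 and 112 counts in *sws1* against 206 and 69 in WT, or 37.3% and 37.1% of the gene against 28.4% and 16.7%. The shares of both forms did not overlap between the genotypes, but the WT libraries lay far apart from each other, and the difference in shares was not tested. janA-RB, whose first exon is a longer form of the second exon of the others, beginning in their first intron, and which encodes 135 codons instead of 119, took 24.1% and 16.6% of the gene in *sws1* and 20.4% and 16.3% in WT. The log2FC was −0.80 for janA-RC (adjusted p = 0.172), −0.19 for janA-RB (0.861) and 0.37 for janA-RA (0.723; edgeR on transcripts). Of the 9 transcripts of the members, 7 could be tested, 5 had an unadjusted p under 0.05 and 0 were called. Among all 14159 transcripts tested by edgeR, 2413 had an unadjusted p under 0.05 and 0 (0%) were called lower. The common coefficient of variation over all features was 0.607 for transcripts and 0.106 for genes, while the standard errors of dj-RA (0.093), janB-RA (0.063) and ocn-RA (0.067) were not larger than those of their genes. Why the calls on genes were not made on transcripts was not tested.

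The genes beside the don juan pair were also lower in *sws1*, and those beside the janus-ocnus cluster were not called. *Mst84B*, a gene named for its male-specific transcript, starts 255 bases after *djl* on the same strand. It had 468 and 521 CPM in *sws1* against 741 and 723 CPM in WT, or −0.57 ± 0.10 on the log2 scale (edgeR, adjusted p = 0.000324). On the other side, *CG1979* ends 643 bases before *dj*. It had 655 and 877 CPM in *sws1* against 970 and 1115 CPM in WT, or −0.44 ± 0.13 on the log2 scale (edgeR, adjusted p = 0.0263). The 4 genes in a row from *CG1979* to *Mst84B* were therefore all called lower. Of all genes tested, 11.5% were called lower, and 30.7% of those with a mean CPM within the range of the members, which holds these 4. Whether the locus has a part in this was not tested.

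At the other locus, *ZIPIC*, which encodes a zinc finger insulator protein, lies 132 bases beyond *ocn*. It had 35 and 36 counts in *sws1* and 64 and 31 counts in WT, with overlapping CPM and a log2FC of 0.10 (95% interval −0.44 to 0.64, adjusted p = 0.822, edgeR). *Sry-beta*, a zinc finger gene that runs away from *janA* from 185 bases on, had 14.8 and 15.3 CPM in *sws1* and 15.7 and 17.6 CPM in WT, with both *sws1* libraries slightly lower. Its log2FC was −0.14 (95% interval −0.65 to 0.37, adjusted p = 0.730, edgeR). *Sry-alpha*, to which the annotation gives the same span as *Sry-beta*, had 0 counts in all 4 libraries. By counting error alone, this allows up to 1.27 and 1.35 unscaled CPM in *sws1* and 0.667 and 1.11 in WT (3 counts per library). How reads that fit both genes were assigned is not given in the sources used here, so the counts of both are uncertain. With so few counts, the intervals of *ZIPIC* and *Sry-beta* contain the log2FC of *janA*, and that of *Sry-beta* also contains the log2FC of *janB*.

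**Figure D2:**
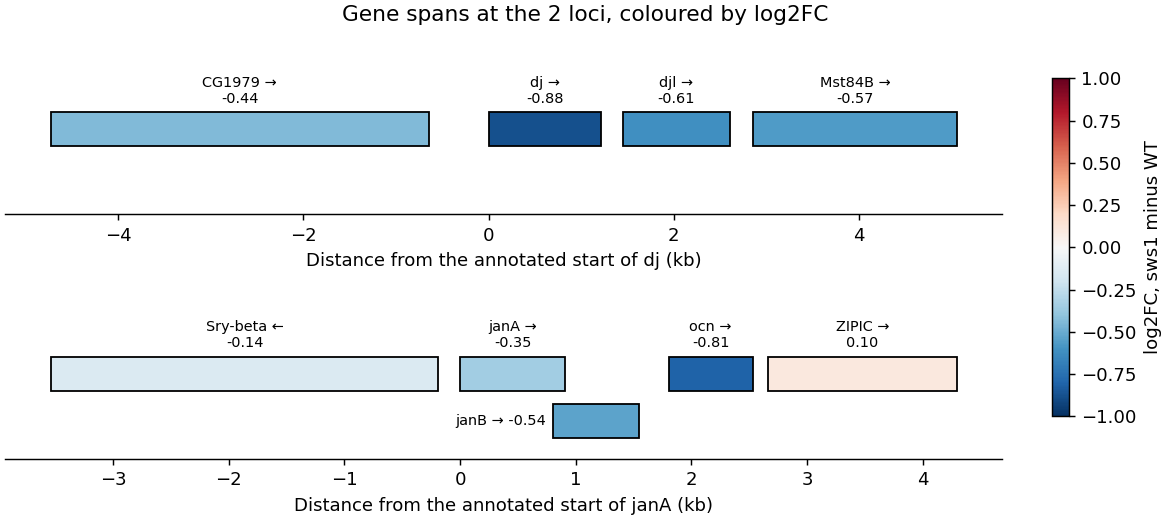
Spans of the members and flanking genes, to scale, as distance in kb from the start of *dj* (top) and of *janA* (bottom), with arrows for the direction of transcription and colour and number for the log2FC (*sws1* minus WT). The 4 genes of the top row range from −0.88 to −0.44, whereas in the bottom row only the 3 members are below −0.3.

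**Figure D3:**
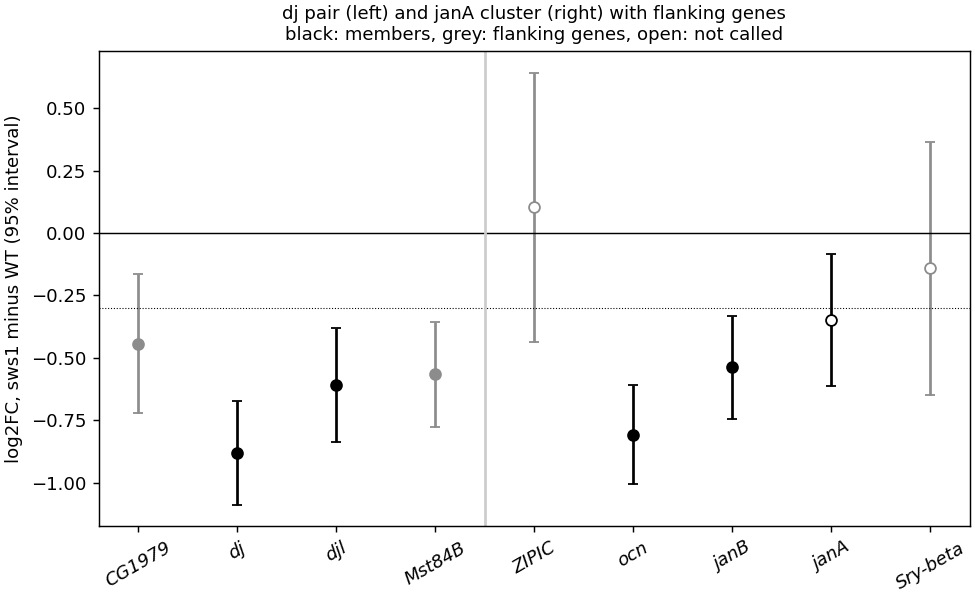
log2FC (*sws1* minus WT) with 95% intervals from edgeR for the members (black) and flanking genes (grey), in genomic order at each locus, where open points were not called and the dotted line marks −0.3. The intervals of *dj*, *djl*, *janB* and *ocn* end at −0.67, −0.38, −0.33 and −0.61, below the dotted line, while that of *janA* reaches −0.08.

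Other genes of late sperm differentiation were mostly lower as well, or did not pass the test. Of 43 tested genes in 4 lists, 23 were called lower and 0 higher, with a median log2FC of −0.37 beside 0.02 over all genes tested. Over all 9634 genes tested, 1109 (11.5%) were called lower and 904 higher. Among genes with a mean CPM within the range of the members, 30.7% were called lower. Among 10 genes for sperm tail proteins, 5 were called lower, including *Mst87F* (log2FC −0.59) and *Mst84Db* (−0.52), which encode cysteine-rich proteins of the tail and whose mRNAs are stored like that of *dj*. Among 8 genes for the leucyl aminopeptidases that fill the mitochondrial derivatives, 5 were called lower, with values of −0.61 in *S-Lap1*, −0.79 in *loopin-1* and −0.35 in *S-Lap7*. Of 6 genes for sperm chromatin, 5 were called lower, among them *Mst77F* (−0.30) and *Mst33A* (−0.59), while *Tpl94D* had −0.25 (adjusted p = 0.0997). Of 19 genes transcribed after meiosis, 8 were called lower, among them *w-cup* (−0.44), *scpr-C* (−0.33) and *scpr-A* (−0.62). In this list 14 of the 19 genes had a log2FC below 0, and the highest value was 0.23. The sperm tail list had 9 of 10 below 0, with a highest value of 0.18. The medians of these lists were −0.48, −0.41, −0.42 and −0.30, and the log2FC of *dj* and *ocn* was below all 4 medians. The lowest single values, in the same order, were −0.92, −0.85, −1.89 and −0.62, so *dj* and *ocn* were not the lowest late sperm genes.

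Genes that act earlier in the germline had no common direction. Among 11 meiotic arrest genes, which switch on the spermatocyte programme that includes sperm genes, 2 were called lower, 1 higher and 8 neither, with a median of −0.04. *can*, a testis-specific TAF, was called lower (−0.42), *achi*, a homeodomain gene, was called higher (0.51), and its near-identical paralog *vis* had 0.02 (adjusted p = 0.912), so that reads could be divided between this pair. Of 10 spermatocyte genes, 2 were called lower, *betaTub85D* (−0.44) and *Cyt-c-d* (−0.47), 1 was called higher (0.72), and the median was 0.34. Only 4 of the 10 had a log2FC below 0, so the 2 genes named went against most of the list. Because *betaTub85D* alone holds between 54.1% and 61.9% of the counts of this list, its sum was lower in *sws1* (4008 and 4129 CPM) than in WT (5016 and 5239 CPM) although its median was above 0. Of 4 spermatogonial genes tested, *bgcn* was called lower (−0.85), and of 7 genes of cyst cells and the hub, 2 were called higher and 0 lower. Of the 8 genes encoded by the mitochondrial genome, 5 were called lower, and their sum was 26355 and 25957 CPM in *sws1* and 32426 and 32908 CPM in WT. The part of these shifts in the values of the members was not tested.

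**Figure D4:**
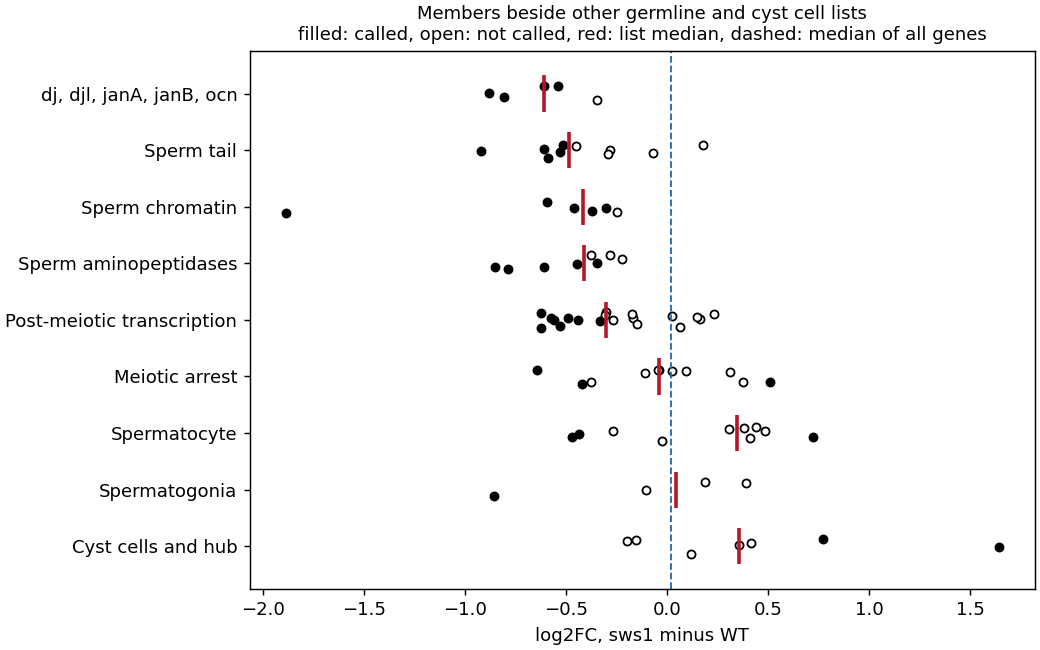
log2FC (*sws1* minus WT) of each tested gene in the members' row and in 8 lists, with filled points for called genes, a red bar at each list's median and a dashed line at 0.02, the median of all genes tested. The 4 late sperm lists below the members' row have medians of −0.48, −0.42, −0.41 and −0.30, whereas the medians of the meiotic arrest, spermatocyte, spermatogonial and cyst cell lists are −0.04, 0.34, 0.04 and 0.36.

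The profile of the 4 called members over the libraries was compared with that of the 2196 other genes with a mean of at least 100 CPM, as the root mean square difference of centred log2(CPM + 1) over 4 libraries. The nearest genes were *COX6AL2* (difference 0.012), *CG6565* (0.015) and *CG2127* (0.021), closer to the mean profile than those members themselves (0.080 to 0.093). *CG2127* had 1397 and 1580 CPM in *sws1* against 2426 and 2361 CPM in WT. *COX6AL2* had 218 and 239 CPM in *sws1* against 369 and 376 CPM in WT. With 4 libraries in 2 groups, a profile holds little more than the size of the difference between genotypes.

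With 12 alternatives for each member, the log2FC of *dj*, *djl*, *janB* and *ocn* was below 0 in every one. That of *janA* was below 0 in the 11 alternatives on genes, and on single transcripts it was −0.80 for janA-RC, −0.19 for janA-RB and 0.37 for janA-RA. With the summed counts of the 10 spermatocyte genes as library size, the log2FC was −0.55 for *dj* (adjusted p = 0.000173) and −0.48 for *ocn* (0.000832), which stayed called. It was −0.28 for *djl* (0.0559), −0.21 for *janB* (0.145) and −0.02 for *janA* (0.937), which did not pass (all edgeR). This library size rests mostly on *betaTub85D*, which holds between 54.1% and 61.9% of the list's counts and was itself called lower (−0.44). The median log2FC of the 10 genes was 0.34 with TMM. This scaling moved the median of all genes to 0.35, and relative to that median the members were at −0.90 (*dj*), −0.63 (*djl*), −0.37 (*janA*), −0.56 (*janB*) and −0.83 (*ocn*). A changed library size moves the log2FC of all genes by nearly the same amount. These differences therefore restate the result with TMM and are not a separate check.

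**Figure D5:**
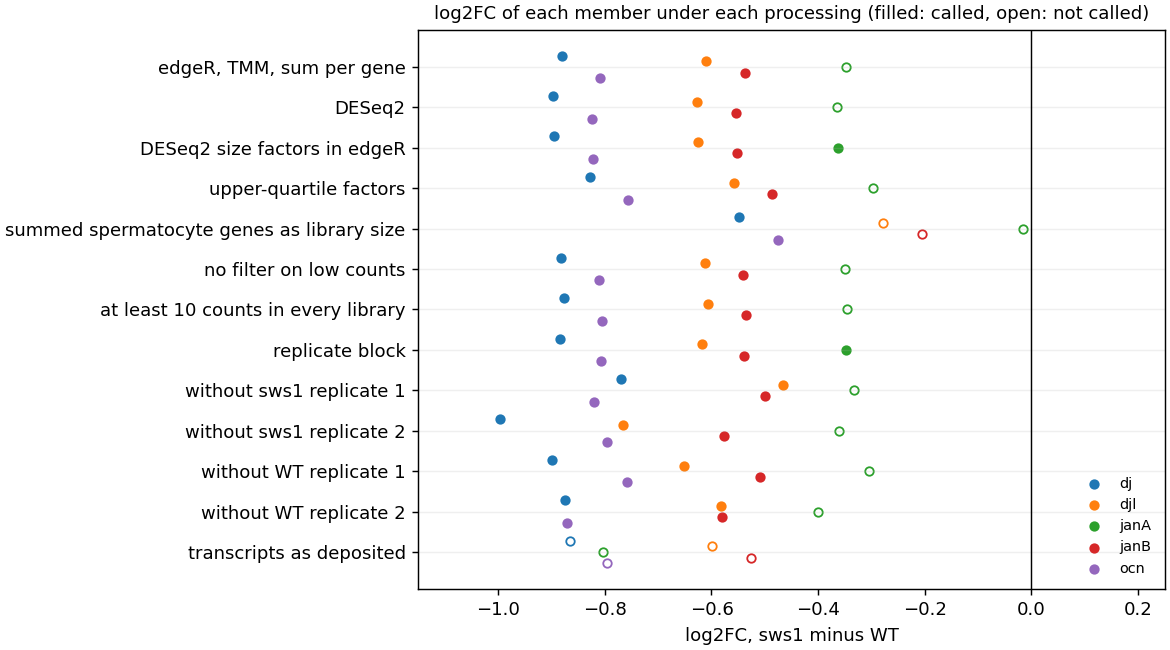
log2FC (*sws1* minus WT) of each member under the main processing (top row) and each alternative, with filled points where the gene was called and janA-RC standing for *janA* in the row of single transcripts. *dj* ranges from −0.997 to −0.55 and *ocn* from −0.87 to −0.48, and open points outside *janA* appear only for the spermatocyte scaling and for single transcripts.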

How the data were processed

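Testis RNA of *sws1* and WT males was depleted of ribosomal RNA and sequenced as directional paired-end libraries of 150 bp reads. The deposited values are raw counts per annotated transcript, made by the authors with htseq-count after trimming (Trimmomatic) and alignment (HISAT2), with no normalization. The reference release, strand setting and treatment of shared reads are not given in the sources used here. Of 29939 transcripts, 29929 matched the BDGP6.54 annotation (Ensembl 115) and were summed to 13771 genes, and 10 were left out. The genotypes were compared in R 4.3.3 across all genes with edgeR 4.0.16 (filterByExpr, TMM, robust quasi-likelihood test, Benjamini-Hochberg adjustment), and CPM are counts per TMM-scaled library size. The standard error of a log2FC was derived from its F statistic. Replicates are libraries of separately pooled testes. Alternatives were DESeq2 1.42.0, other scalings, filters, thresholds and units, the replicate block, and leaving out each library. The test was tried on simulated counts with a common dispersion and with larger changes than the members had. This trial does not measure how reliable the calls above are. The genes named are the members, their flanking genes, at most the 3 most abundant genes of each list and the 3 nearest profiles. The members and the 13 gene lists were chosen with earlier results of these data known, and 3 list symbols without a match were left out.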

Additional observations from a re-analysis of the deposited data

How the results depend on the processing

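The 4 calls were kept with DESeq2, upper-quartile factors, DESeq2's size factors, a minimum of 10 counts per library or no minimum, and no fold threshold, and without each library in turn. *janA* was also called with DESeq2's size factors (log2FC −0.36, adjusted p = 0.0459) and with the replicate block (−0.35, adjusted p = 0.0430, which makes 5 members called; edgeR). The labels link libraries across genotypes only by a number, and whether same-numbered libraries were prepared together is not known. The correlation of their deviations over 9634 genes was −0.00069, which cannot settle this. With spermatocyte genes, mostly *betaTub85D*, as library size, 2 members were called, as *djl* (−0.28) and *janB* (−0.21) no longer passed. With this scaling 3183 genes were called higher and 328 lower, against 904 and 1109 with TMM and 363 and 631 with DESeq2. An absolute log2FC above 1 left 0 members. On transcripts, 0 were called, with log2FC of −0.86 (dj-RA), −0.60 (*djl*), −0.53 (*janB*) and −0.80 (*ocn*). Without 1 library, the log2FC lay between −0.997 and −0.77 for *dj*, −0.77 and −0.47 for *djl*, −0.40 and −0.31 for *janA*, −0.58 and −0.50 for *janB* and −0.87 and −0.76 for *ocn*. Per length of the longest transcript, *janA* had 191 CPM per kb in *sws1* and 243 in WT. With 2 libraries per genotype, *janA* has the fewest counts and the widest interval of the members.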

Other observations

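The log2 ratio of *sws1* replicate 1 to replicate 2, in CPM, was −0.22 for *dj*, −0.30 for *djl*, −0.42 for *CG1979* and −0.16 for *Mst84B*, all in the same direction. At the other locus it was −0.03 for *janA*, −0.07 for *janB* and 0.03 for *ocn*, and −0.17 for *ZIPIC* and −0.05 for *Sry-beta*, which have between 31 and 67 counts per library. The same ratio between the WT replicates was −0.04 for *dj*, −0.09 for *djl*, −0.20 for *CG1979* and 0.04 for *Mst84B*, and 0.08, 0.05 and 0.10 for *janA*, *janB* and *ocn*, with 0.31 for *ZIPIC* and −0.16 for *Sry-beta*. Late sperm genes elsewhere in the genome also had *sws1* ratios of this size, with −0.38 for *w-cup*, −0.28 for *S-Lap7* and −0.27 for *Tpl94D*. Others went the other way, such as *scpr-C* (0.15) and *scpr-A* (0.15). A shared direction is therefore not particular to the don juan locus. The comparison of the loci was chosen after the values were seen and was not tested.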
